A study of Mus musculus with 15 samples.

Results

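The 37 genes described here encode pattern recognition receptors, the proteins with which innate immune cells sense microbes, and the adaptor proteins and kinases that sit closest to them. They were chosen by name, with earlier results of these data known. On the arrays, 36 of the 37 had a matched probe and 34 were tested, out of 20145 genes with a matched probe and 14214 genes tested. Tlr5, the flagellin receptor, was well above background on 0 of 15 arrays and Tlr12, a mouse receptor for a parasite profilin, on 1 of 15, so neither was tested. No probe was matched to Clec7a, the receptor for fungal glucans known as Dectin-1.

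The arrays hold RNA from mouse macrophages that had been derived from bone marrow during a week with the growth factor MCSF, on a C57BL/6 background throughout. Knockout (KO) cells had the genotype Junb-fl/fl Lyz2-Cre+/+, and wild type (WT) cells were C57BL/6. Cells were given 100 ng/ml of lipopolysaccharide (LPS), from the outer membrane of Gram-negative bacteria, for 4 h, or left untreated. The groups comprised 3 KO arrays with LPS, 4 KO arrays untreated, 4 WT arrays with LPS and 4 WT arrays untreated. Junb encodes a subunit of the transcription factor AP-1, and the study asked what its loss does to macrophage activation. Cre sits in both copies of Lyz2, a gene that is active in myeloid cells, so deletion is driven by that locus and the locus itself is altered in KO cells. Replicates were separate wells, so the p-values rest on the spread between wells, part of which may be technical, and say nothing of the spread between mice.

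Toll-like receptors (TLRs) at the cell surface bind bacterial lipids and proteins, while those in endosomes bind nucleic acids and need the chaperone Unc93b1 to get there. LPS is handed by Cd14 to the pair of Tlr4 and Ly96, and the adaptors Tirap and Myd88 then recruit the kinases Irak4, Irak1 and Irak2 and the ubiquitin ligase Traf6, the route to NF-kB and to inflammatory cytokines. A separate route from endosomes runs through Ticam2, Ticam1, Traf3 and the kinases Tbk1 and Ikbke to type I interferon. Cytosolic sensors (Nod1, Nod2) and C-type lectins (Clec4d, Clec4e, Clec4n) report on peptidoglycan fragments and on microbial glycans and glycolipids. In macrophages these genes are part of the standing equipment, and several are themselves targets of the signals they start.

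The cells carried macrophage RNA. Of 8 macrophage markers, 7 had a matched probe and all 7 were well above background on all 15 arrays. Junb had processed signals of 0.645 to 3.71 in KO cells with LPS and -0.395 to 4.15 in untreated KO cells, against 4323 to 9574 and 1291 to 2068 in WT cells with LPS and untreated. It was well above background on 0 of 7 KO arrays and on all 8 WT arrays. Lyz2 had signals of 869 to 3793 on KO arrays and 345888 to 448164 on WT arrays. All KO arrays lay on slide 1 and all WT arrays on slide 2, so slide and genotype cannot be told apart. Each comparison of LPS with untreated cells stays on 1 slide, but on both slides the untreated arrays occupied the first row and the LPS arrays the second, so array row and treatment cannot be told apart. Of the deviations around the group means, those on untreated KO replicate 3, untreated WT replicate 1 and LPS-treated WT replicate 4 had SDs of 0.637, 0.541 and 0.53 on the log2 scale, against 0.231 to 0.434 on the other 12 arrays.

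Untreated KO replicate 3 needs mention before the values. The scanner software had marked 3.57% of its spots as non-uniform or as outliers, against 0.223% to 0.867% on the other arrays, and 6 of the 34 genes tested (Tlr13, Cd180, Ly86, Nod2, Clec4d and Clec4n) have no value on it. The spot for Ikbke was not marked, yet its signal there was 94.1, against 7188 to 26553 on the other 14 arrays. Of the spots around it, 13.1% were marked, and its local background was 58.0, against 25.0 to 32.0 on the other arrays. Csf1r, the MCSF receptor, stood at 3415 on that array and at 221748 to 381656 on the others, with 9.80% of the surrounding spots marked. Results for genes with such a spot are given with and without it.

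RefSeq promoter windows, which run from 250 bases before to 50 bases after the annotated start, were found for 29 of the 37 genes. Since AP-1, NF-kB and interferon-activated factors are the known regulators downstream of these receptors, each window was searched on both strands for TGANTCA (the AP-1 motif), the kappaB consensus and GAAANNGAAA (the core of the interferon-stimulated response element, ISRE). These genes have 38 windows, since some have several annotated starts. TGANTCA was present in those of Ikbke and Tlr9, 5.26% of the 38, against 7.81% of all 32851 windows in the table. The kappaB consensus was present for Tlr2, Tlr3 and Traf3 (7.89%, against 4.51% of all windows), and the ISRE core for Tlr6, Myd88 and Clec4d (7.89%, against 3.44%). GAGGAA, a core bound by ETS factors such as the macrophage factor PU.1, was present in 13 of the 38 windows, from 12 genes (34.2%, against 28.3%). The windows of 8 of the 29 genes are printed below in gene orientation (build GRCm38.p6), with matches to TGANTCA, the kappaB consensus and GAAANNGAAA in capitals. They are Tlr2, Tlr3, Tlr6 and Myd88, which rose with LPS and hold a kappaB or ISRE match, and Ikbke and Tlr9, which hold TGANTCA. The others are Tbk1 and Irak4, whose response to LPS differed between the genotypes.
Tlr2, chr3:83841559-83841858, minus strand: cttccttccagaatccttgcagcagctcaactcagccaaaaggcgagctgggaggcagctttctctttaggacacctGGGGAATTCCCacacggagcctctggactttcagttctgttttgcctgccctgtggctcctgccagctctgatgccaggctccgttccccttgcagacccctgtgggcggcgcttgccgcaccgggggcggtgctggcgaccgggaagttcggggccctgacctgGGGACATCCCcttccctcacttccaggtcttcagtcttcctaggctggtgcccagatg
Tlr3, chr8:45410331-45410630, minus strand: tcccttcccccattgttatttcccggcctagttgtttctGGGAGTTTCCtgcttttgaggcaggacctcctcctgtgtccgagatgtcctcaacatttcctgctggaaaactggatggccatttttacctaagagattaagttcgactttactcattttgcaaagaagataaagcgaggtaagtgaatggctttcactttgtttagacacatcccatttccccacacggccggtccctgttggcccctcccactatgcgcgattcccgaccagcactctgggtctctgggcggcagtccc
Tlr6, chr5:64959117-64959416, minus strand: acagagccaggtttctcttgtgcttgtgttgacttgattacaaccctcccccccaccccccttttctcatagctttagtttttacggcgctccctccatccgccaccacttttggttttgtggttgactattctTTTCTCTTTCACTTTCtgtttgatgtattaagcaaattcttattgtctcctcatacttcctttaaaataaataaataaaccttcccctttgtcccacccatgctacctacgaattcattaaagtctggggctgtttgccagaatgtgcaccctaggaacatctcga
Myd88, chr9:119339969-119340268, minus strand: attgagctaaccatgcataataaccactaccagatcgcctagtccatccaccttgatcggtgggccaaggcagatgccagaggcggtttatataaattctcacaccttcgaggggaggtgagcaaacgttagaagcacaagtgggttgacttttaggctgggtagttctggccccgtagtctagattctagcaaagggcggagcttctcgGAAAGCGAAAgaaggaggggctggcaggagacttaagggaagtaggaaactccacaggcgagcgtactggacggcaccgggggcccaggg
Ikbke, chr1:131279514-131279813, minus strand: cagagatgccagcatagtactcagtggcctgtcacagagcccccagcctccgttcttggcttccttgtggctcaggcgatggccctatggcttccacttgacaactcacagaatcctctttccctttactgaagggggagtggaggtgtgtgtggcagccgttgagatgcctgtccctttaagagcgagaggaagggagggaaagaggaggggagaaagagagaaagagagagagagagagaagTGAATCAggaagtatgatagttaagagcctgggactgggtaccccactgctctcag
Tlr9, chr9:106222348-106222647, plus strand: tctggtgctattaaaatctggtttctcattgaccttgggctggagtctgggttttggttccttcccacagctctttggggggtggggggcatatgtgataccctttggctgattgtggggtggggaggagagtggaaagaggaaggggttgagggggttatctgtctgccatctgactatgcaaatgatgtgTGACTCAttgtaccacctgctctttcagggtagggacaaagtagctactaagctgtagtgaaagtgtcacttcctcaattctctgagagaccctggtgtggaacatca
Tbk1, chr10:121586745-121587044, minus strand: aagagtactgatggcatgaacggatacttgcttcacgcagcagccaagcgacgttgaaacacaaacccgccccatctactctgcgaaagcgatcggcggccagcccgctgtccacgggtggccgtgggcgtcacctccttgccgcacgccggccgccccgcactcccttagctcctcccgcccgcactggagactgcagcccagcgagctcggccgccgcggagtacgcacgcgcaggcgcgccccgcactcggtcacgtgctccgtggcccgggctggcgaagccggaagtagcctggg
Irak4, chr15:94543410-94543709, plus strand: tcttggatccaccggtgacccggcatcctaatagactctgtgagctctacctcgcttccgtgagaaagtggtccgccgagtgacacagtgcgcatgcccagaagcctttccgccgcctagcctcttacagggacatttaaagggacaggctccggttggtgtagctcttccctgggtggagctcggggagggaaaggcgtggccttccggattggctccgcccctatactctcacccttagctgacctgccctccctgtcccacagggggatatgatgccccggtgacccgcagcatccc

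In Tlr2, 2 overlapping kappaB matches start at -173 and -172 relative to the annotated start and a further match at -8. In Tlr3, the match starts at -211. The ISRE cores begin at -116 and -110 in the printed window of Tlr6, where they overlap, and at -40 in Myd88. The window of a further annotated start of Tlr6, not printed, holds none of the motifs. TGANTCA begins at -6 in Ikbke and at -58 in Tlr9. The printed windows of Tbk1 and Irak4 hold none of the 3 motifs shown in capitals. Neither do the windows, not printed, of Nod1 and Nod2, which had the largest rises with LPS, and of Clec4e, whose response also differed. Traf3, with a kappaB match, fell with LPS, and Clec4d, with an ISRE core, did not pass with LPS in the main fit. These matches describe letters in short windows. Binding was not measured, and each of the 3 motifs was found in a few of the 29 genes.

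With LPS, most of these genes changed in cells of either genotype. In KO cells 20 of the 34 rose and 6 fell, against 32.4% and 27.4% of all genes tested. In WT cells 23 rose and 6 fell, against 34.9% and 25.5% of all genes. The median log2 fold change of the 34 was 0.97 in KO cells and 1.17 in WT cells, while over all genes it was 0.19 and 0.14. Quantile normalisation moved that median over all genes to -0.08 in KO and -0.13 in WT cells, and scaling to the array median to -0.16 and -0.14. The comparisons used limma across all genes with Benjamini-Hochberg adjustment at 0.05, and a level here is log2 of the processed signal over the array's 75th percentile. In these bulk samples, fewer cells of a type and less RNA per cell cannot be told apart. The rises were spread over surface receptors, LPS co-receptors, adaptors and cytosolic sensors, and the 6 falls were the same genes in both genotypes: Tlr13, Mavs, Tmem173, Irak1, Irak4 and Traf3.

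**Figure D1:**
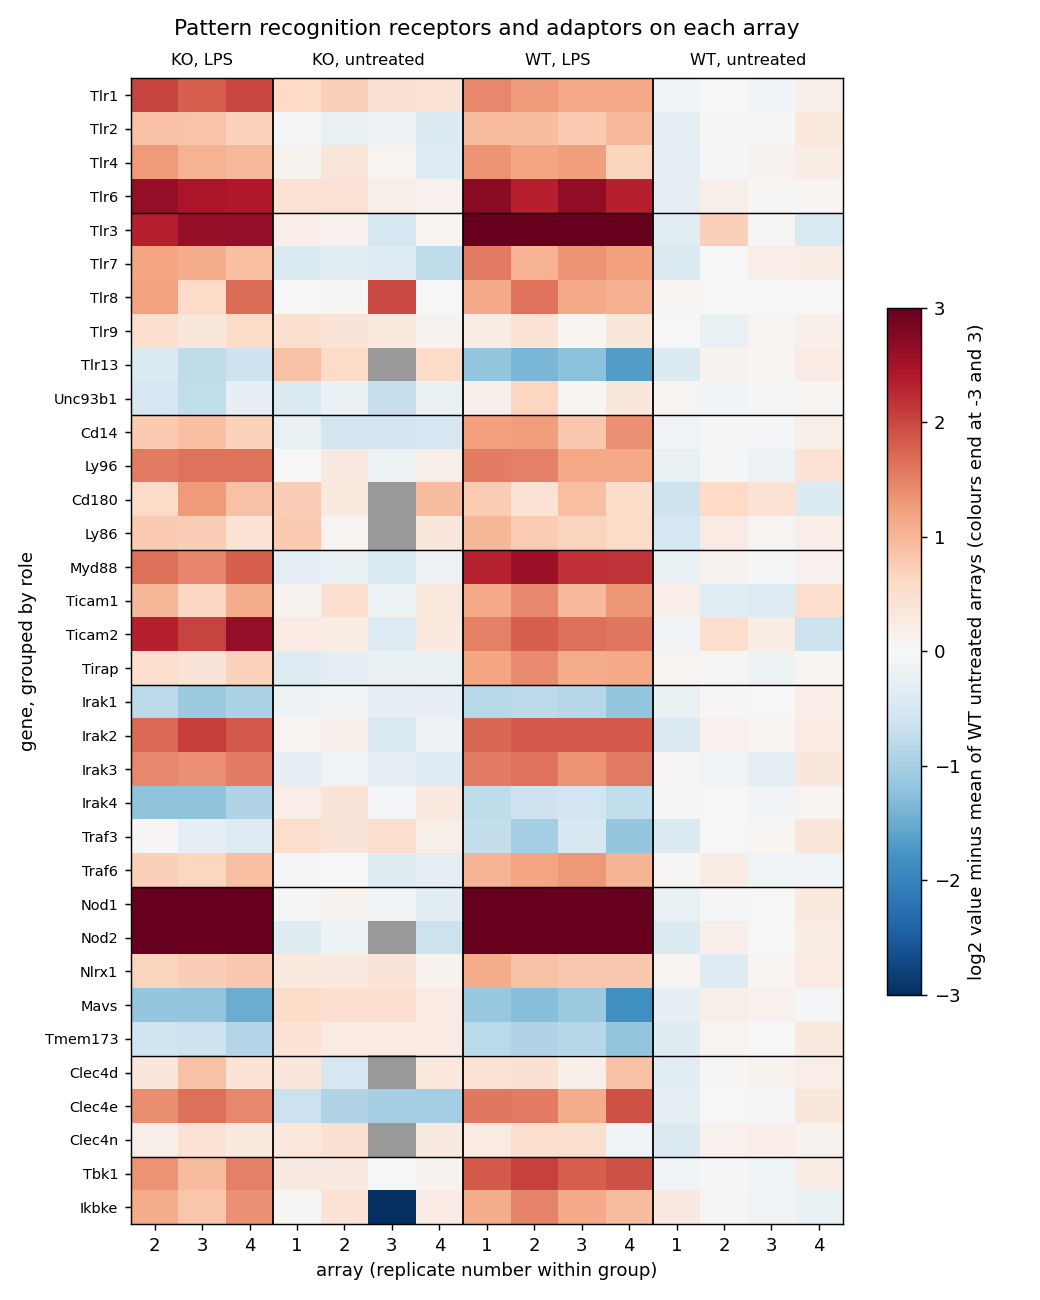
Heat map of the 34 genes tested (rows, grouped by role) on the 15 arrays (columns, by group and replicate). Colour gives the log2 value minus the mean of the untreated WT arrays, the scale ends at -3 and 3, and grey marks a missing value. Nod1 and Nod2 lie at the red end on every array with LPS, and the dark blue cell in the bottom row is the Ikbke spot of untreated KO replicate 3.

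Among the surface receptors, all 4 tested rose with LPS in both genotypes. Tlr6, which pairs with Tlr2 to bind diacylated lipopeptides, had levels of 3.87, 3.69 and 3.65 in KO cells with LPS, 1.66, 1.66, 1.41 and 1.38 in untreated KO cells, 3.94, 3.57, 3.91 and 3.56 in WT cells with LPS and 0.97, 1.41, 1.27 and 1.29 in untreated WT cells. All arrays with LPS lay above all untreated arrays, with log2 fold changes of 2.21 ± 0.14 in KO cells and 2.51 ± 0.13 in WT cells (SE; adjusted p = 9.64e-09 and 9.33e-10). Tlr4, the LPS receptor itself, had levels of 4.15, 3.93 and 3.86 in KO cells with LPS, 2.98, 3.23, 2.96 and 2.50 in untreated KO cells, 4.23, 4.06, 4.13 and 3.55 in WT cells with LPS and 2.60, 2.83, 2.98 and 3.1 in untreated WT cells. Its fold changes of 1.06 ± 0.19 and 1.12 ± 0.18 did not pass after scaling to the array median or in the deposited value table. Tlr1, the partner of Tlr2 for triacylated lipopeptides, rose by 1.40 ± 0.11 in KO and 1.26 ± 0.11 in WT cells, and Tlr2, the shared partner, by 1.02 ± 0.13 and 0.90 ± 0.12. For Tlr2 the call was lost after scaling to the array median and after quantile normalisation in both genotypes, and in the deposited value table in KO cells. The window of Tlr2 printed above is the only one among the 29 genes with more than 1 kappaB match. Tlr6 did not pass in the deposited value table in either genotype.

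The endosomal receptors moved in different directions. Tlr3, which binds double-stranded RNA, had levels of 0.41, 0.67 and 0.71 in KO cells with LPS, -1.73, -1.81, -2.44 and -1.84 in untreated KO cells, 1.34, 1.13, 1.58 and 1.53 in WT cells with LPS and -2.24, -1.21, -1.90 and -2.38 in untreated WT cells. The groups with LPS lay clear of the untreated groups, and the rise was 2.55 ± 0.25 in KO cells and 3.33 ± 0.23 in WT cells. Tlr13, a mouse receptor for bacterial ribosomal RNA, had levels of 5.01, 4.68 and 4.84 in KO cells with LPS, 6.32, 6.03 and 6.03 on the 3 measured untreated KO arrays, 4.28, 4.08, 4.21 and 3.78 in WT cells with LPS and 5.05, 5.56, 5.50 and 5.69 in untreated WT cells. It fell in both, with log2 fold changes of -1.29 ± 0.18 (adjusted p = 4.14e-05) in KO and -1.36 ± 0.16 (adjusted p = 5.85e-06) in WT cells, though neither passed in the deposited value table. Tlr7, a receptor for single-stranded RNA, rose by 1.54 ± 0.17 and 1.29 ± 0.16, and a further probe gave 1.17 ± 0.14 and 1.20 ± 0.13. Tlr9, which binds CpG DNA, and Unc93b1 did not pass in either genotype, with log2 fold changes of 0.17 ± 0.13 and 0.26 ± 0.12 for Tlr9 and -0.12 ± 0.16 and 0.30 ± 0.15 for Unc93b1. Without untreated WT replicate 4 or LPS-treated WT replicate 3, Tlr9 passed in WT cells, with 0.31 ± 0.12 and 0.32 ± 0.13 (adjusted p = 0.0463 and 0.0424), as it did in the deposited value table. Under quantile normalisation Unc93b1 was called lower with LPS in both genotypes, and the deposited value table gave the same calls.

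Tlr8, the relative of Tlr7, was close to background, being well above it on 2 of 4 untreated KO arrays and 3 of 4 untreated WT arrays. It had levels of -3.29, -3.93 and -2.81 in KO cells with LPS, -4.52, -4.47, -2.52 and -4.52 in untreated KO cells, -3.35, -2.88, -3.36 and -3.43 in WT cells with LPS and -4.44, -4.52, -4.52 and -4.52 in untreated WT cells, where -4.52 is the floor. The value of -2.52 on untreated KO replicate 3 stood apart, and 12.4% of the spots around it were marked. With that spot the change in KO cells was 0.66 ± 0.41 and did not pass, and without it the fitted change was 1.16 ± 0.22 (adjusted p = 5.67e-04). In WT cells the fitted change was 1.24 ± 0.38 (adjusted p = 0.0114), a call that was lost in the deposited value table (0.73, adjusted p = 0.170). Apart from the spot on replicate 3, the untreated values of both genotypes lay at or next to the floor, so the sizes and SEs of these changes depend on it.

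**Figure D2:**
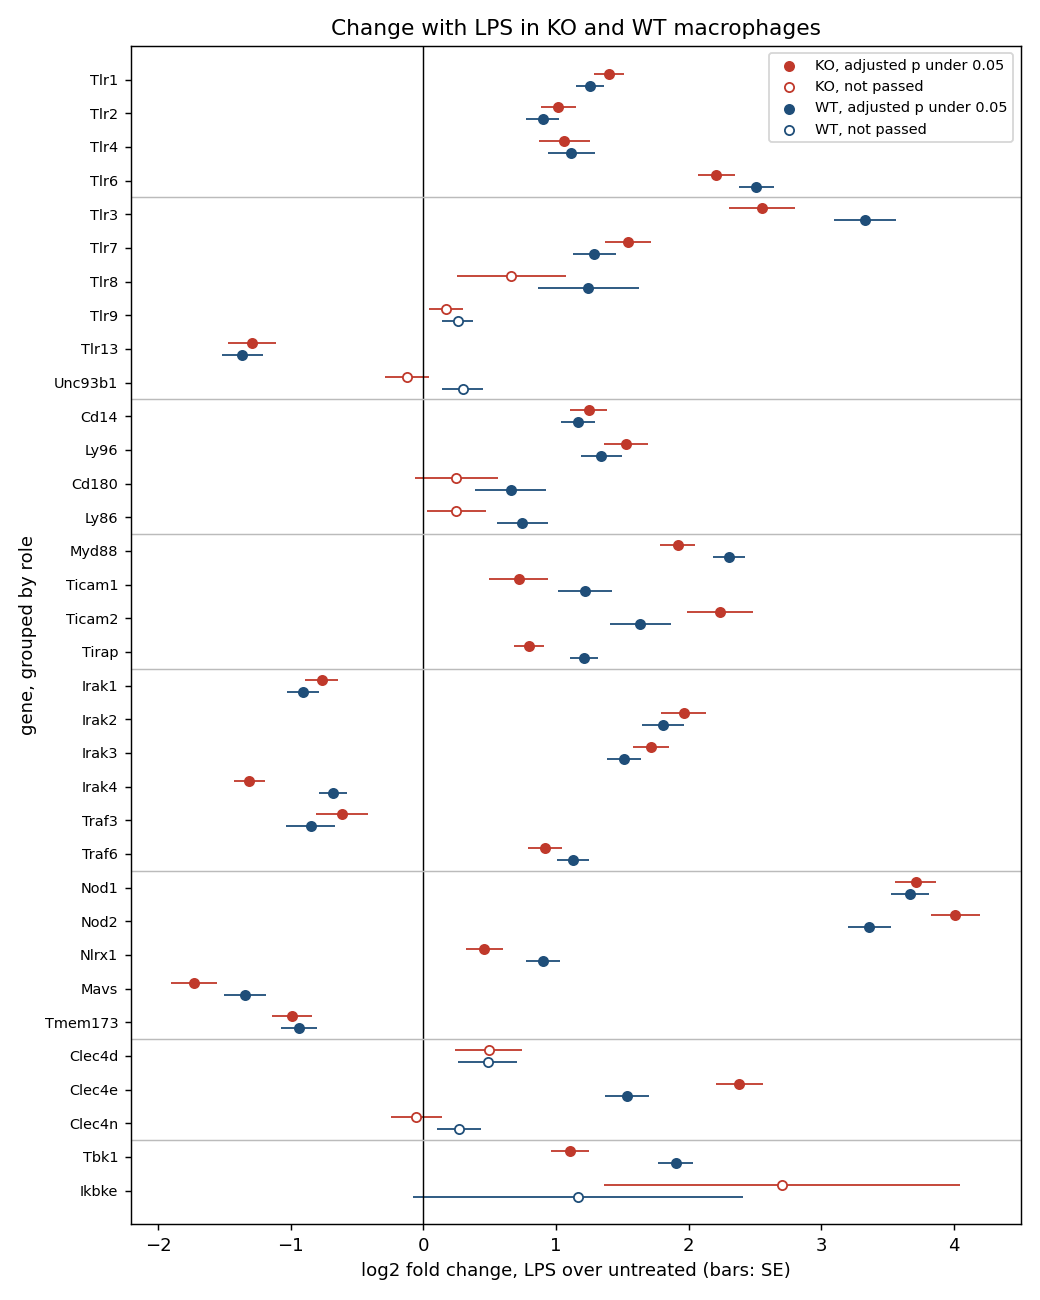
Log2 fold change with LPS over untreated (x axis, bars show the SE) for each of the 34 genes (y axis, grouped by role), in KO cells (red, upper point of each pair) and WT cells (blue, lower point). Filled points passed an adjusted p of 0.05 and open points did not. Nod2, Nod1 and Tlr3 lie farthest to the right among the filled points, and the wide bars of Ikbke come from 1 low spot.

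Of the 4 LPS co-receptors and their relatives, 2 rose in KO cells and 4 in WT cells. Cd14, which hands LPS to Tlr4, had levels of 8.55, 8.66 and 8.46 in KO cells with LPS, 7.53, 7.22, 7.21 and 7.27 in untreated KO cells, 9.0, 9.01, 8.56 and 9.14 in WT cells with LPS and 7.67, 7.74, 7.70 and 7.94 in untreated WT cells. Every array with LPS lay above every untreated array, with log2 fold changes of 1.25 ± 0.14 and 1.17 ± 0.13. Ly96, the LPS-binding partner of Tlr4 also called MD-2, rose by 1.53 ± 0.17 in KO and 1.34 ± 0.15 in WT cells, but did not pass in the deposited value table, where the WT value was -1.06. Cd180, a TLR-like protein, and its partner Ly86 did not pass in KO cells (0.25 ± 0.31 and 0.25 ± 0.22). In WT cells Cd180 rose by 0.66 ± 0.27 at the edge of the threshold (adjusted p = 0.0499), and Ly86 rose by 0.75 ± 0.19 (adjusted p = 0.00467). The Cd180 call was lost when any of 11 of the 15 arrays was left out, with adjusted p up to 0.152 without untreated WT replicate 1. The Ly86 call was lost under quantile normalisation and after scaling to the array median. The differences of response between the genotypes were -0.41 ± 0.41 and -0.50 ± 0.30 and did not pass.

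All 4 adaptors rose in both genotypes. Myd88, the adaptor of nearly all TLRs, had levels of 6.02, 5.83 and 6.17 in KO cells with LPS, 4.09, 4.18, 3.9 and 4.19 in untreated KO cells, 6.67, 6.92, 6.57 and 6.53 in WT cells with LPS and 4.17, 4.48, 4.33 and 4.49 in untreated WT cells. The 4 groups did not overlap except for the untreated ones, and the rise was 1.92 ± 0.13 in KO and 2.31 ± 0.12 in WT cells (adjusted p = 1.92e-08 and 1.06e-09). Tirap, which brings Myd88 to Tlr2 and Tlr4, rose by 0.79 ± 0.11 and 1.21 ± 0.10. Ticam1, the TRIF adaptor of the interferon route, rose by 0.72 ± 0.22 and 1.22 ± 0.21, and Ticam2, the TRAM adaptor that links it to Tlr4, by 2.24 ± 0.25 and 1.63 ± 0.23. Without LPS-treated KO replicate 4 the KO change of Ticam1 was 0.62 ± 0.26 (adjusted p = 0.0557). The KO calls of Ticam1 and Tirap were also lost after scaling to the array median.

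The kinases and ligases below the adaptors split evenly, with 3 rises and 3 falls in each genotype. Irak2, the kinase that sustains the response, rose by 1.96 ± 0.17 in KO and 1.81 ± 0.16 in WT cells, Irak3, a kinase-dead inhibitor of the pathway, by 1.72 ± 0.14 and 1.51 ± 0.13, and the ubiquitin ligase Traf6 by 0.92 ± 0.13 and 1.13 ± 0.12. Irak1, which Irak4 activates, had log2 fold changes of -0.77 ± 0.13 in KO and -0.91 ± 0.12 in WT cells, and its 3 probes all gave lower values with LPS. Traf3, which serves the interferon route, had levels of 3.81, 3.50 and 3.39 in KO cells with LPS, 4.30, 4.17, 4.31 and 3.95 in untreated KO cells, 3.05, 2.74, 3.28 and 2.62 in WT cells with LPS and 3.34, 3.79, 3.83 and 4.13 in untreated WT cells. It changed by -0.61 ± 0.20 (adjusted p = 0.0154) in KO and by -0.85 ± 0.18 (adjusted p = 0.00103) in WT cells. Without LPS-treated KO replicate 3 or 4 the KO call was lost (adjusted p = 0.0506 and 0.0657). Traf6 in KO cells did not pass after scaling to the array median, and Irak3 did not pass in the deposited value table in either genotype.

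The sensors of peptidoglycan fragments showed the largest rises of the 34 genes. Nod1 had levels of 6.01, 5.71 and 5.85 in KO cells with LPS, 2.20, 2.34, 2.15 and 1.90 in untreated KO cells, 6.18, 5.90, 5.85 and 5.68 in WT cells with LPS and 2.01, 2.16, 2.22 and 2.53 in untreated WT cells. Nod2 had levels of 5.88, 5.76 and 5.64 in KO cells with LPS, 1.78, 1.97 and 1.48 on 3 untreated KO arrays, 5.62, 5.28, 5.72 and 5.36 in WT cells with LPS and 1.73, 2.28, 2.15 and 2.36 in untreated WT cells. Nod1 rose by 3.71 ± 0.15 in KO and 3.67 ± 0.14 in WT cells, and Nod2 by 4.01 ± 0.19 and 3.36 ± 0.16 (adjusted p of 1.04e-09 or less in all 4 tests). The calls held under every alternative run. The adaptors of other cytosolic routes fell. Mavs, the mitochondrial adaptor of the RNA helicases, had levels of 1.29, 1.26 and 0.97 in KO cells with LPS, 2.99, 2.94, 2.96 and 2.69 in untreated KO cells, 1.30, 1.16, 1.33 and 0.62 in WT cells with LPS and 2.21, 2.62, 2.58 and 2.39 in untreated WT cells, and no array with LPS reached the untreated range. Its log2 fold changes were -1.73 ± 0.17 and -1.35 ± 0.16, and those of Tmem173, the DNA-route adaptor STING, were -0.99 ± 0.15 and -0.94 ± 0.14.

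Nlrx1, a mitochondrial relative of the Nod proteins, gave opposite answers from its 2 probes. The probe used in the fit, which was well above background on all 15 arrays, rose by 0.46 ± 0.14 in KO and 0.90 ± 0.13 in WT cells. The other changed by -0.98 ± 0.36 in KO cells (adjusted p = 0.0479 over all named probes), where it was well above background on 1 of 3 arrays with LPS and on 4 of 4 untreated. In WT cells it was not well above background on any array with LPS, and it was at least 5.47-fold lower there than in untreated cells (adjusted p = 6.15e-05), where it was well above background on 4 of 4 arrays. The bound sets the untreated mean against the floor used in the fit. With the mean over both probes the WT value turned to -0.78, so Nlrx1 has no settled direction on these arrays.

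Of the C-type lectin receptors, only Clec4e passed with LPS. Clec4e, also called Mincle, a receptor for mycobacterial and fungal glycolipids, had levels of 8.59, 8.86 and 8.65 in KO cells with LPS, 6.56, 6.31, 6.21 and 6.20 in untreated KO cells, 8.78, 8.76, 8.32 and 9.11 in WT cells with LPS and 6.93, 7.20, 7.15 and 7.54 in untreated WT cells. It rose by 2.38 ± 0.18 and 1.54 ± 0.17. Clec4d, its co-receptor, changed by 0.49 ± 0.25 and 0.48 ± 0.22, and Clec4n, the mannan receptor Dectin-2, by -0.05 ± 0.19 and 0.27 ± 0.17. Neither passed, but Clec4d in WT cells passed without untreated KO replicate 2 or LPS-treated WT replicate 3 (adjusted p = 0.0350 and 0.0468), and Clec4n in WT cells without LPS-treated WT replicate 4 (adjusted p = 0.0377).

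At the bright end of the arrays, the signal of Clec4d varied less than the scale of the arrays. Its processed signal lay between 215137 and 330627 on its 14 measured arrays, a 1.54-fold range, whereas the 75th percentile by which each array was divided ranged 3.09-fold, from 482 to 1490. With LPS, Clec4e lay between 226121 and 340331 on the 7 arrays and Cd14 between 196761 and 401665. Untreated, Clec4e lay lower, and Ly86 stayed within 90771 to 211860 over 14 arrays. No spot was marked as saturated, and the part of this bright end in the fold changes of these 4 genes was not tested.

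**Figure D3:**
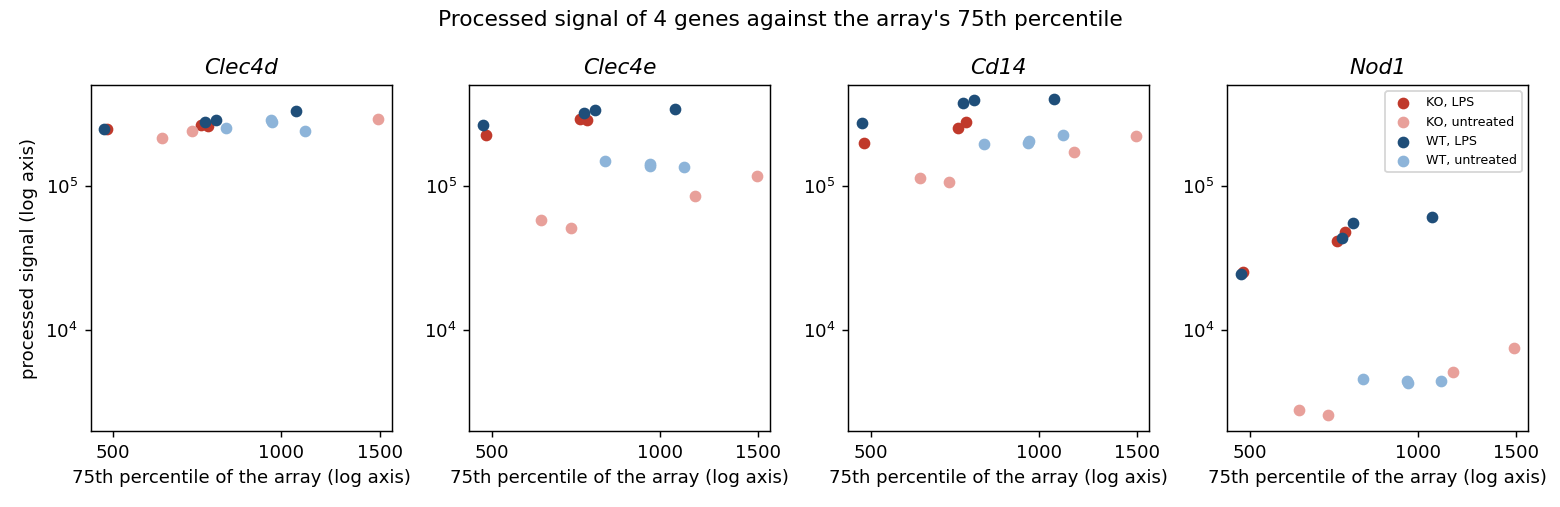
Processed signal (y axis, log scale) against the 75th percentile of the array (x axis, log scale) for Clec4d, Clec4e, Cd14 and Nod1 on each array, with KO arrays in red (LPS) and pink (untreated) and WT arrays in dark blue (LPS) and light blue (untreated). Clec4d stays between 215137 and 330627 across the whole range of the x axis, whereas Nod1 shows separate levels with LPS and untreated.

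The 2 kinases that phosphorylate IRF3 are Tbk1 and Ikbke. Tbk1 had levels of 4.05, 3.62 and 4.22 in KO cells with LPS, 2.96, 2.95, 2.71 and 2.80 in untreated KO cells, 4.55, 4.75, 4.48 and 4.61 in WT cells with LPS and 2.61, 2.65, 2.61 and 2.92 in untreated WT cells. It rose by 1.11 ± 0.14 in KO and 1.90 ± 0.13 in WT cells, and the KO arrays with LPS lay below the WT arrays with LPS and above all untreated arrays. Ikbke had levels of 4.63, 4.35 and 4.87 in KO cells with LPS, 3.55, 3.96, -3.62 and 3.76 in untreated KO cells, 4.63, 5.0, 4.64 and 4.45 in WT cells with LPS and 3.79, 3.54, 3.40 and 3.32 in untreated WT cells. With the spot at -3.62 included it did not pass in either genotype (2.70 ± 1.34 and 1.17 ± 1.24), although it passed in WT cells in a fit of the WT groups alone. Without spots in marked neighbourhoods, an alternative added after the data were seen, it rose by 0.86 ± 0.18 in KO cells (adjusted p = 0.00117) and by 1.17 ± 0.16 in WT cells (adjusted p = 2.42e-05). Leaving out untreated KO replicate 3 as a whole gave adjusted p of 0.00126 and 2.51e-05. Leaving out spots in marked neighbourhoods also removed the spots of Tirap on untreated KO replicate 3 and of Mavs on LPS-treated KO replicate 2, and no call of either gene changed.

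The response to LPS itself differed between the genotypes for 3 of the 34 genes, 1 with a higher and 2 with a lower change in KO cells, against 2.9% higher and 7.15% lower among all genes. The shares among the 34 were 2.94% and 5.88%, close to those background values. Under quantile normalisation 2 genes were higher and 2 lower. Tbk1 rose less in KO than in WT cells, with a difference of -0.80 ± 0.19 on the log2 scale (95% interval -1.22 to -0.38, adjusted p = 0.0188). Its untreated levels overlapped, while with LPS 4.22 was the highest KO value and 4.48 the lowest WT value. The call held when each array was left out in turn (adjusted p 0.0104 to 0.0444). It did not pass after scaling to the array median, after normexp background correction or in the deposited value table.

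Irak4, the kinase that starts the Myd88 cascade, fell more in KO cells. It had levels of -0.56, -0.55 and -0.26 in KO cells with LPS, 0.84, 1.03, 0.61 and 0.94 in untreated KO cells, -0.11, 0.02, 0.06 and -0.09 in WT cells with LPS and 0.69, 0.63, 0.56 and 0.72 in untreated WT cells. All KO values with LPS lay below all WT values with LPS, and untreated the groups overlapped. The falls with LPS were -1.31 ± 0.12 in KO and -0.68 ± 0.11 in WT cells, and their difference was -0.63 ± 0.16 (adjusted p = 0.0226). A further probe of Irak4 gave -1.30 ± 0.22 in KO and -0.15 ± 0.21 in WT cells, and a difference of -1.15 ± 0.30 (adjusted p = 0.0471 over all named probes). The call was lost without LPS-treated KO replicate 2, LPS-treated KO replicate 3 or untreated WT replicate 3 (adjusted p = 0.0628, 0.0667 and 0.0511), after scaling to the median and with normexp. In the deposited value table the difference was 0.01.

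Clec4e had the higher response in KO cells, by 0.85 ± 0.24 (adjusted p = 0.0431). This difference sits in the untreated cells, where KO levels of 6.20 to 6.56 lay below WT levels of 6.93 to 7.54, while the levels with LPS overlapped at the bright end. The call was lost when any of 12 of the 15 arrays was left out (adjusted p up to 0.126 without LPS-treated KO replicate 3) and with the replicate number as a block (adjusted p = 0.0749). Among the genes that did not pass, Nod2 had a difference of 0.65 ± 0.25 and Tlr3 of -0.78 ± 0.34. Without untreated WT replicate 1 Nod2 passed, with 0.78 ± 0.21 (adjusted p = 0.0342), as it did under quantile normalisation, and without untreated WT replicate 2 Tlr3 passed, with -1.02 ± 0.27 (adjusted p = 0.0355). For Nod1, whose rise was among the largest, the difference was 0.04 ± 0.21 with a 95% interval of -0.41 to 0.49, and for Tlr4 it was -0.05 ± 0.26 with an interval of -0.62 to 0.51.

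**Figure D4:**
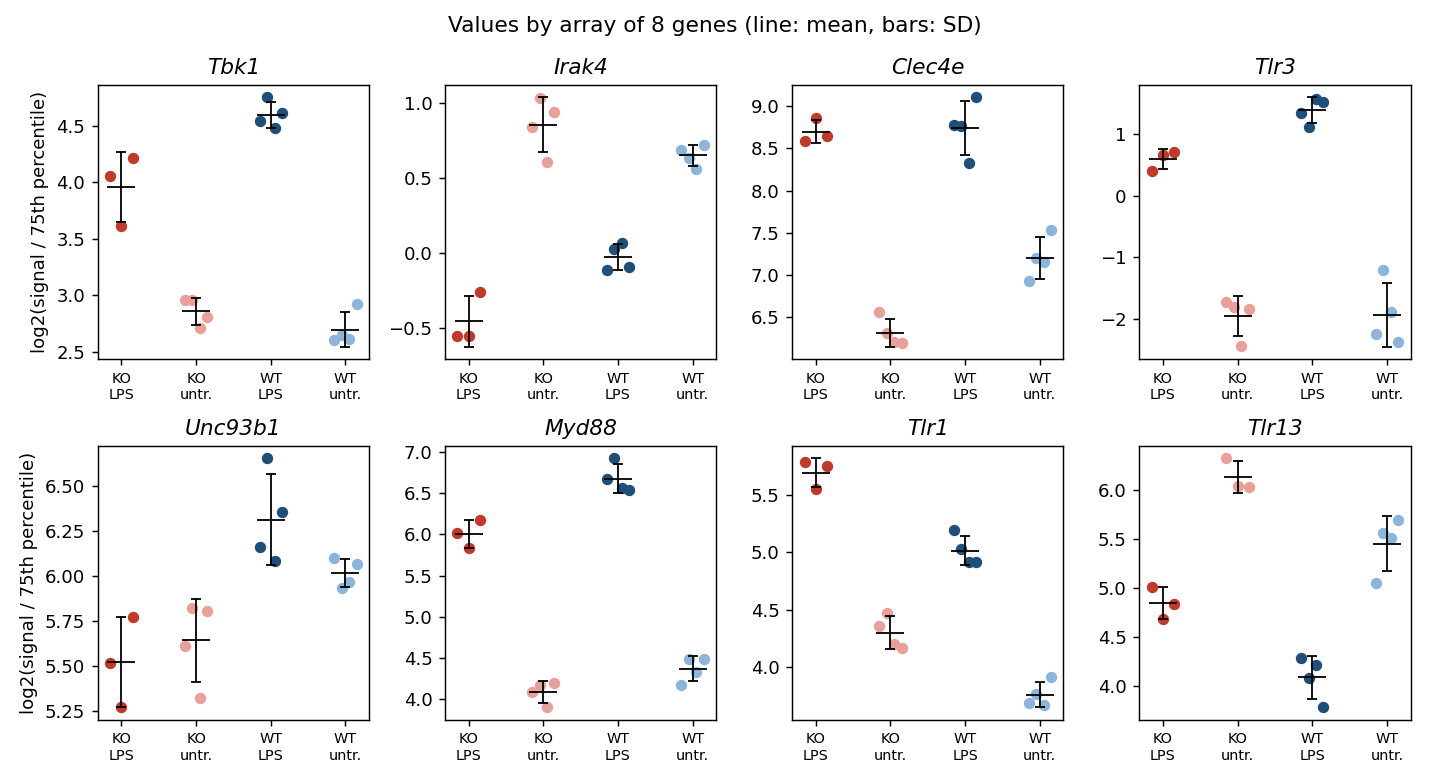
Log2 of the signal over the array's 75th percentile (y axis) on each array for 8 genes, by group (x axis, KO with LPS, KO untreated, WT with LPS, WT untreated). Points are arrays, the line is the group mean and the bars are the SD. Tbk1 and Irak4 separate the genotypes with LPS and overlap untreated, Clec4e does the reverse, and Tlr1 and Tlr13 are higher in KO cells in either state.

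Set against WT cells at the same treatment, LPS-treated KO cells had 4 of the 34 genes higher and 7 lower, against 13.6% and 17.1% of all genes tested. The shares among the 34 were 11.8% and 20.6%. The lower genes were the adaptors Myd88 and Tirap, the kinases Irak4 and Tbk1, the ligase Traf6, the double-stranded RNA receptor Tlr3 and the chaperone Unc93b1. The kinases Irak1 and Irak2, which act beside Irak4, did not pass by the probes used in the fit (-0.04 ± 0.13 and 0.06 ± 0.17). A further probe of Irak2 was lower, as given below. The higher ones were Tlr1, Tlr13, Ticam2 and Traf3. The differences were moderate, between -0.80 and 0.75 on the log2 scale. After scaling to the array median none of the 11 passed limma's adjusted threshold, although 5 genes were lower at an unadjusted p under 0.05 and 0 were higher. No direction turned round under that scaling or under quantile normalisation.

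Among the lower genes, Tirap had levels of 2.15, 2.02 and 2.33 in KO cells with LPS, against 2.82, 3.07, 2.76 and 2.77 in WT cells with LPS. Unc93b1 had 5.52, 5.27 and 5.77 in KO cells with LPS, against 6.16, 6.65, 6.08 and 6.36 in WT cells with LPS, and neither gene's groups overlapped. The differences were -0.69 ± 0.11 for Tirap (adjusted p = 4.52e-04), -0.79 ± 0.16 for Unc93b1 (adjusted p = 0.00258), -0.67 ± 0.13 for Myd88 (adjusted p = 0.00181) and -0.64 ± 0.14 for Tbk1 (adjusted p = 0.00419). These 4 calls held when each array was left out in turn. Untreated, the same genes differed by -0.27 ± 0.10, -0.37 ± 0.15, -0.28 ± 0.12 and 0.16 ± 0.13, none of which passed. Myd88 and Irak4 did not pass in the deposited value table, where the value of Irak4 was 0.13.

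The calls of Tlr3, Irak4 and Traf6 were less firm. Tlr3 differed by -0.80 ± 0.25 (adjusted p = 0.0272), Irak4 by -0.43 ± 0.12 (adjusted p = 0.0137) and Traf6 by -0.37 ± 0.13 (adjusted p = 0.0443). Traf6 had levels of 0.89, 0.81 and 1.08 in KO cells with LPS and 1.19, 1.35, 1.48 and 1.19 in WT cells with LPS, close but without overlap. The Tlr3 call was lost without LPS-treated KO replicate 2 or 3 or LPS-treated WT replicate 3 or 4 (adjusted p up to 0.0984), that of Irak4 without LPS-treated KO replicate 2 or 3 (up to 0.0646), and that of Traf6 without any of 7 arrays (up to 0.165, without LPS-treated KO replicate 3). Irak2 did not pass by the probe used in the fit (0.06 ± 0.17), while a further probe gave -0.77 ± 0.19 (adjusted p = 0.0141 over all named probes). Tlr7 gave -0.23 ± 0.17 by the probe used in the fit and -0.64 ± 0.14 (adjusted p = 0.00703) by the other.

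Of the higher genes, Tlr1 had levels of 5.79, 5.55 and 5.75 in KO cells with LPS and 5.19, 5.03, 4.92 and 4.92 in WT cells with LPS, and Tlr13 is listed above. Neither gene's groups overlapped, and the differences were 0.68 ± 0.11 for Tlr1 (adjusted p = 5.86e-04) and 0.75 ± 0.17 for Tlr13 (adjusted p = 0.00494). Ticam2 had levels of 0.51, 0.21 and 0.80 in KO cells with LPS, against -0.32, -0.04, -0.16 and -0.24 in WT cells with LPS. It was higher by 0.70 ± 0.25 (adjusted p = 0.0477) and Traf3 by 0.64 ± 0.20 (adjusted p = 0.0241). The Ticam2 call was lost without any of 11 of the 15 arrays (adjusted p up to 0.166, without LPS-treated KO replicate 4). That of Traf3 was lost without LPS-treated KO replicate 2 or 3 or LPS-treated WT replicate 2 or 4 (up to 0.106). Across the LPS-treated groups, deviations of arrays with the same replicate number, which is also the array column, were positively correlated. The fit with the replicate number as a block is therefore given as well. There 2 genes were higher and 5 lower, and the calls of Ticam2, Traf3, Tlr3 and Traf6 were lost (adjusted p = 0.0751, 0.0532, 0.0554 and 0.0735).

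In untreated cells 2 of the 34 genes were higher in KO and 2 lower, against 11.9% and 5.83% of all genes. The shares among the 34 were 5.88% in each direction. Under quantile normalisation 6 were higher and 4 lower, and with normexp background correction 0 were higher by limma's adjusted p and 2 lower, with 6 higher at an unadjusted p under 0.05. Tlr1 had levels of 4.36, 4.47, 4.20 and 4.17 in untreated KO cells and 3.68, 3.76, 3.67 and 3.91 in untreated WT cells, without overlap, and was higher by 0.54 ± 0.11 (adjusted p = 0.00284). Tlr13 was higher by 0.68 ± 0.17 (adjusted p = 0.0148) on 3 and 4 arrays. Without untreated KO replicate 1 its difference was 0.58 ± 0.19 (adjusted p = 0.0737), and in the deposited value table it was -1.75 (adjusted p = 0.487). Marked spots were not set to missing in that table, and the Tlr13 spot on untreated KO replicate 3 was marked. The part of that spot in the value of -1.75 was not tested. Clec4e differed by -0.89 ± 0.17 (adjusted p = 0.00206) and Cd14 by -0.45 ± 0.13 (adjusted p = 0.0264). The Cd14 call was lost without untreated KO replicate 2, 3 or 4 or untreated WT replicate 2 or 4 (adjusted p up to 0.0700). With LPS, Cd14 differed by -0.37 ± 0.14 and did not pass, except without LPS-treated WT replicate 3 (-0.49 ± 0.12, adjusted p = 0.00879), under quantile normalisation and with normexp background correction.

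Tlr7 in untreated cells was -0.48 ± 0.16 and did not pass, but its other probe gave -0.60 ± 0.13 (adjusted p = 0.0108 over all named probes). Without untreated WT replicate 1, Tlr7 passed with -0.62 ± 0.14 (adjusted p = 0.00926) and Nod2 with -0.52 ± 0.15 (adjusted p = 0.0407). Mavs had a difference of 0.45 ± 0.16, which passed without LPS-treated WT replicate 4 (adjusted p = 0.0190), under quantile normalisation, with the replicate number as a block and in a fit of the untreated groups alone. After scaling to the array median none of the 34 passed limma's adjusted threshold in untreated cells, with 0 higher and 1 lower at an unadjusted p under 0.05. Clec4e came closest there (adjusted p = 0.0535). In the authors' deposited log2 values, 1 gene was higher and 0 lower by limma's adjusted p, and at an unadjusted p under 0.05 there were 6 and 1.

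**Figure D5:**
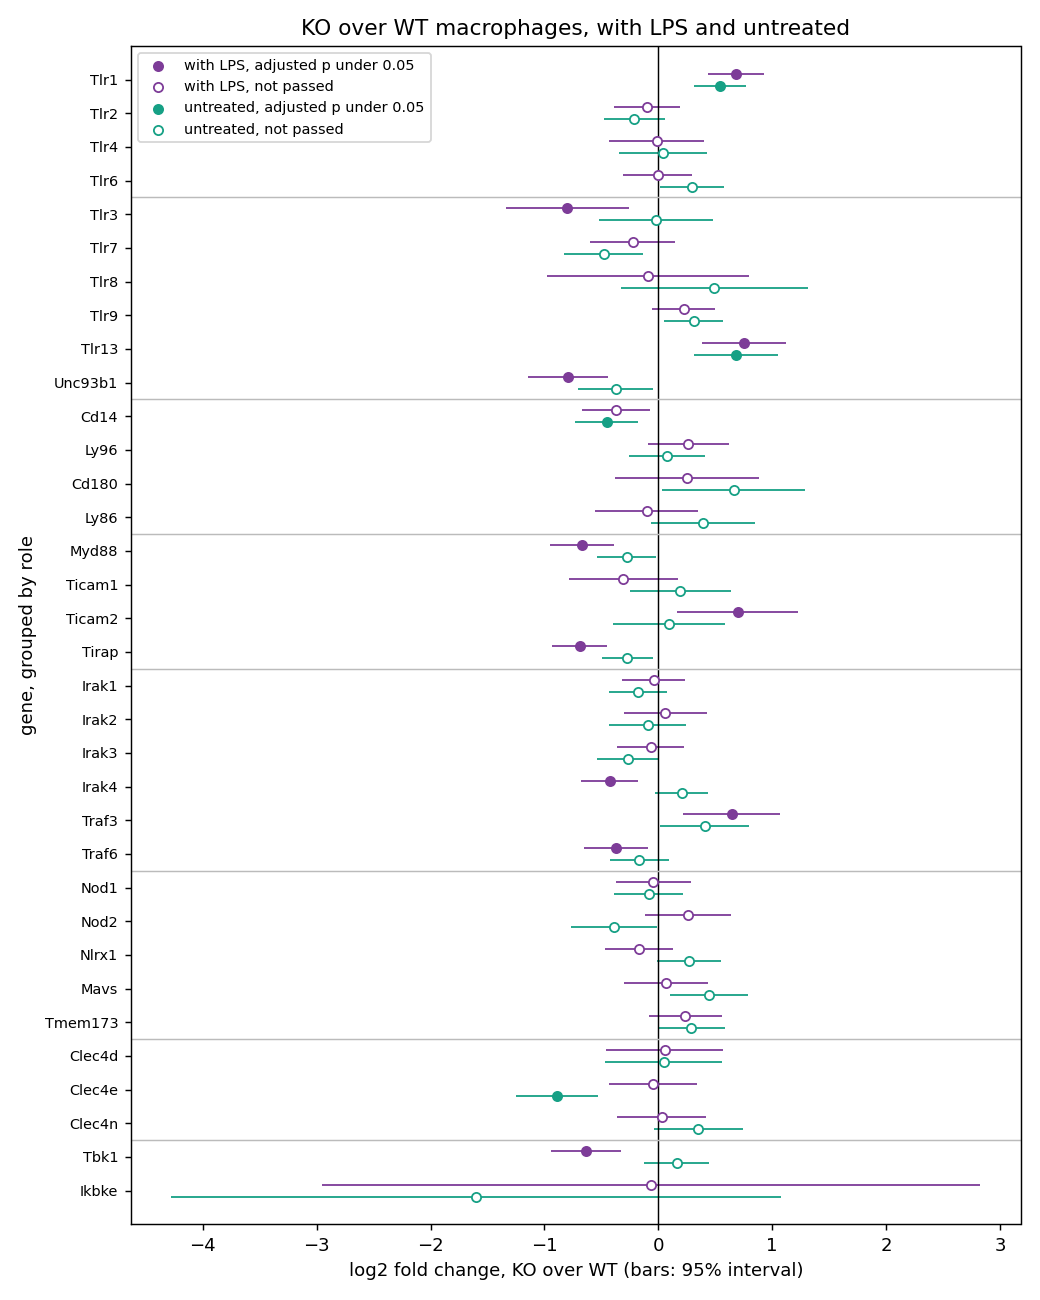
Log2 fold change of KO over WT cells (x axis, bars show the 95% interval) for each of the 34 genes (y axis, grouped by role), with LPS (purple, upper point of each pair) and untreated (green, lower point). Filled points passed an adjusted p of 0.05 and open points did not. With LPS the filled points left of 0 are Tlr3, Unc93b1, Myd88, Tirap, Irak4, Traf6 and Tbk1.

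Other values moved with genotype beside these differences, and their part in them was not tested. Tlr7, Tlr8, Tlr13 and Irak1 lie on the X chromosome. Xist, the RNA of the inactive X chromosome, had signals of -5.0 to 9.87 on the 7 KO arrays and 339 to 2034 on the 8 WT arrays, while the Y-linked Ddx3y had 4220 to 13895 on KO and -5.43 to -0.371 on WT arrays. Another Y-linked gene, Kdm5d, did not split that way, with 30.7 to 87.8 on KO and 0.585 to 1184 on WT arrays. Its probe was dim on most arrays, and was well above background on 1 of 4 WT arrays with LPS and 4 of 4 untreated. These 3 genes were chosen after their values were seen. By Xist and Ddx3y the sex of the mice may coincide with genotype, in which case the 2 cannot be told apart in any comparison of KO with WT cells. Of 9 neutrophil markers with a probe, 4 were well above background on all arrays, and Mpo and Cxcr2 on none. Their summed signal over the 75th percentile was 19.4 to 22.2 in KO cells with LPS and 7.39 to 8.53 in untreated KO cells, against 52.5 to 71.1 and 10.69 to 16.9 in WT cells with LPS and untreated. The members of this list differed. S100a9 was well above background on 0 of 7 KO and all 8 WT arrays, while S100a8, Elane, Camp and Mmp8 were so on all arrays. With LPS, S100a8 had signals of 7718 to 9710 in KO and 20125 to 49432 in WT cells, and Mmp8 663 to 944 and 1965 to 6475. Elane (233 to 361 and 252 to 451) and Camp (2052 to 3591 and 2593 to 8072) overlapped. Of 7 stromal markers, 3 were detected on all arrays, and their sum was 17.8 to 20.0 in KO cells with LPS and 2.94 to 4.47 in untreated KO cells, against 6.74 to 10.4 and 2.48 to 4.78 in WT cells. Its members did not move together with LPS. Pdgfrb had signals of 5934 to 10546 in KO cells with LPS against 1778 to 4798 in WT cells with LPS, while Dcn had 73.6 to 123 against 390 to 601, and Lum was well above background on 0 of 3 against 4 of 4 arrays. Of 8 dendritic cell markers, 4 were detected on all arrays and Clec9a on none, with sums of 167 to 233 and 101 to 179 in KO cells with LPS and untreated, against 136 to 321 and 151 to 214 in WT cells. Nearly all of each sum was Siglech, with signals of 101892 to 235749, and no other marker of that list exceeded 358. T and NK cell markers summed to 2.91 to 3.71 and 0.581 to 1.35 in KO cells with LPS and untreated, against 2.45 to 3.43 and 0.746 to 1.08 in WT cells. Cd3d, Cd3g and Ncr1 were well above background on no array. Lck had signals of 1007 to 1784 and 127 to 267 in KO cells with LPS and untreated, and 675 to 2011 and 103 to 149 in WT cells. The B cell, erythroid and mast cell sums lay between 0.0996 and 0.892 on all arrays.

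Beyond the 37 genes, 116 further genes of the same pathways were counted in 6 lists, of which 109 were tested. With LPS, 52 rose and 20 fell in KO cells (47.7% and 18.3%, against 32.4% and 27.4% of all genes), and 59 rose and 18 fell in WT cells (54.1% and 16.5%, against 34.9% and 25.5%). Of 13 RNA and DNA sensors tested, 10 rose and 2 fell in KO cells and 11 rose and 1 fell in WT cells. Zbp1, a sensor of Z-form nucleic acid, rose by 4.82 ± 0.30 and 4.17 ± 0.28, and Ifih1, the RNA helicase MDA5, by 4.06 ± 0.17 and 3.91 ± 0.16. Of 15 inflammasome genes, 8 rose and 5 fell in KO cells and 9 rose and 4 fell in WT cells. Nlrc5, a regulator of MHC class I genes, rose by 3.9 ± 0.13 in KO and 3.65 ± 0.12 in WT cells, and Nlrp1b, the sensor of anthrax lethal toxin, fell (-3.46 ± 0.17 and -3.18 ± 0.16).

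The counts of single lists stand beside 32.4% of all genes higher and 27.4% lower in KO cells, and 34.9% and 25.5% in WT cells. No list was tested against these shares. Among 26 inhibitors tested, 12 rose and 4 fell in KO cells and 15 rose and 2 fell in WT cells. Socs1, which blocks cytokine receptor kinases, rose by 7.0 ± 0.19 in KO and 6.50 ± 0.18 in WT cells, and the lipid phosphatase gene Inpp5d fell (-3.55 ± 0.15 and -3.13 ± 0.14). Of 23 downstream kinases and ubiquitin enzymes, 12 rose and 3 fell in KO cells and 13 rose and 2 fell in WT cells. Ripk2, the kinase used by Nod1 and Nod2, rose by 4.37 ± 0.14 and 4.41 ± 0.13. Of 18 further C-type lectins and their signalling proteins, 8 rose and 2 fell in KO cells and 8 rose and 4 fell in WT cells, with Malt1, the protease of the Card9 complex, at 4.95 ± 0.16 and 4.07 ± 0.15. Of 14 genes for TLR folding and transport, 2 rose and 4 fell in KO and 3 rose and 5 fell in WT cells. Lrrc59, which helps nucleic acid-sensing TLRs leave the endoplasmic reticulum, rose by 1.36 ± 0.15 and 1.84 ± 0.14, and Nrros, a TLR-associated protein, fell (-2.23 ± 0.16 and -1.77 ± 0.15).

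Between KO and WT cells with LPS, 10 of the 109 were higher and 20 lower, which is 9.17% and 18.3%, against 13.6% and 17.1% of all genes. Irf7, the interferon regulatory factor downstream of the endosomal TLRs, was lower, with a log2 difference of -1.72 ± 0.23 (adjusted p = 9.96e-05). Nlrp3, an inflammasome sensor, differed by -0.86 ± 0.17 (adjusted p = 0.00172) and Rnf31, of the linear ubiquitin ligase, by -0.83 ± 0.16 (adjusted p = 0.00170). Both genes, like Zbp1, Ifih1, Nlrc5, Nlrp1b and Lrrc59 above, have 1 further probe, whose values are not given here. Card9, the adaptor of C-type lectin signalling, was lower (-1.21 ± 0.20), and the mannose receptor gene Mrc1 was higher (1.28 ± 0.15). The Card9 probe was dim, with a signal of at most 511, and in 1 group only 2 arrays had it well above background. Cd300a, with -2.95 ± 0.79, had the lowest value of the 109 and a wide error. In untreated cells 13 were higher and 15 lower (11.9% and 13.8%, against 11.9% and 5.83% of all genes), with Irf7 at -1.68 ± 0.21, Socs1 at -1.15 ± 0.18, Mrc1 at 1.75 ± 0.14 and the phagocytic receptor gene Mertk at 1.21 ± 0.18. The response to LPS was higher in KO cells for 6 of the 109 and lower for 5 (5.50% and 4.59%, against 2.9% and 7.15% of all genes). Malt1 rose more in KO cells, by 0.88 ± 0.22 (adjusted p = 0.0225), while Irf5, a transcription factor of the Myd88 route, and Ripk1, a kinase of the Ticam1 route, changed by -0.79 ± 0.19 and -0.60 ± 0.16 relative to WT cells (adjusted p = 0.0203 and 0.0299).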

How the data were processed

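Each of the 15 samples was read on 1 single-colour (Cy3) Agilent array, and per the file headers the deposited scanner files were made with Agilent Feature Extraction 10.7.3.1, whose processed signal is a background-subtracted intensity with no scaling between arrays. A deposited table of the authors' log2 values, whose scale and centring are not given in the sources used here, served as an alternative. Marked spots were not set to missing in that alternative. The deposited table correlated with each array's own scanner values at a Spearman coefficient of 0.968 or more. The probe design uses build mm9, per the file headers.

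From these intensities, control spots were left out and 4827 marked spots were set to missing, while 0 spots were saturated. Each array's signals were divided by its 75th percentile (482 to 1490), floored at 0.0436 and taken to log2. Of 55681 probes, 26582 had 1 gene symbol through their RefSeq accession and 29099 had none. A probe was kept where 3 or more arrays of 1 group had it well above background, and the brightest kept probe stood for its gene, which gave 14214 genes. On each array 51.0% to 63.2% of probes were well above background, and the number of arrays limits the precision. limma 3.58.1 in R 4.3.3 was fitted to the means of the 4 groups over all 15 arrays, with Benjamini-Hochberg adjustment over all genes at 0.05. The fit was also run on simulated data with independent noise. These held no slide effect, shared wells or marked spots, so that run says nothing of their part in the calls. Python 3.11.15 made the summaries.

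The members and gene lists were chosen with earlier results of these data known. Every member is named. Other genes are named only as cell type markers, as Junb or Lyz2, or as 1 of the 2 largest rises or falls past the threshold in their list, apart from 3 sex-linked genes. Deviations of same-numbered arrays correlated at 0.135 to 0.446 between the 2 LPS-treated groups, in 3 pairs. Differently numbered arrays of these groups correlated at -0.564 to 0.426. The replicate number is also the array column on both slides, so paired wells and array position cannot be told apart. Between the untreated groups same-numbered arrays correlated at -0.393 to -0.0793, and between untreated KO and LPS-treated WT cells at 0.0211 to 0.355. No other pair of groups was positive in every same-numbered pair. The alternatives were quantile and median scaling, normexp background correction, no filter on dim probes, the mean of all probes, the deposited log2 table, the replicate number as a block, only the groups compared, a threshold of 1.5-fold, each array left out in turn, 3 distant arrays left out together and, added after seeing the data, spots in marked neighbourhoods left out. A neighbourhood spans 8 rows and 4 columns either way and counts from 10% of its spots marked.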

Additional observations from a re-analysis of the deposited data

Results flagged for a closer look

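The response to LPS differed between KO and WT cells, by the test of the difference itself, for Tbk1 (-0.80, adjusted p = 0.0188), Irak4 (-0.63, adjusted p = 0.0226) and Clec4e (0.85, adjusted p = 0.0431).

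A single array stood apart from the other 3 of its group in 13 of 96 groups of values examined with Dixon's criterion, which chance alone meets in about 1 of 20 where values are not tied. On untreated KO replicate 3, Ikbke was at -3.62 against 3.55 to 3.96 on the other 3 arrays, Tlr8 at -2.52 against -4.52 to -4.47, Tlr3 at -2.44 against -1.84 to -1.73, and Ticam2 at -2.21 against -1.59 to -1.54. On untreated KO replicate 1, Cd14 was at 7.53 against 7.21 to 7.27 and Tmem173 at 4.24 against 4.05 to 4.07. On untreated KO replicate 4, Mavs was at 2.69 against 2.94 to 2.99.

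In LPS-treated WT cells, Tlr8 was at -2.88 in replicate 2 against -3.43 to -3.35, Irak1 at 1.70 in replicate 4 against 2.01 to 2.06, and Irak2 at 3.81 in replicate 1 against 3.93 on each of the others. In untreated WT cells, Tlr8 was at -4.44 in replicate 1 while the others were tied at the floor of -4.52, where any value above it meets the criterion. Also in untreated WT cells, Clec4n was at 2.90 in replicate 1 against 3.45 to 3.54, and Tbk1 at 2.92 in replicate 4 against 2.61 to 2.65.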

How the results depend on the processing

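Over all alternatives, 3993 single-gene values stayed on their side of the threshold, and 138 of these, none of them called, changed sign. A further 140 lost the call, 43 gained it, and 10 that were called in at least 1 of the compared settings turned round. Of the calls with LPS, 14 of 26 in KO cells and 19 of 29 in WT cells held under every alternative, and none of the calls between genotypes did. Scaling to the array median left 13 genes higher with LPS in KO cells and 0 in either direction for the difference of response, for untreated KO over WT and for LPS-treated KO over WT by limma's adjusted p. At an unadjusted p under 0.05 it gave 0 higher and 1 lower, 0 and 1, and 0 and 5. The deposited value table, which holds 28 of the 34 genes, gave 11 genes higher with LPS in KO and 14 in WT cells, 0 and 0 for the response (0 and 2 unadjusted), 1 higher and 0 lower untreated (6 and 1 unadjusted), and 2 higher and 3 lower with LPS. Quantile normalisation gave 2 genes with a higher response, and 6 higher and 4 lower untreated. With normexp, 0 genes had a lower response (6 unadjusted) and 0 were higher untreated (6 unadjusted). No filter on dim probes gave 0 genes with a higher response (2 unadjusted), leaving out 3 arrays together gave 2, and a threshold of 1.5-fold left 1 higher and 1 lower untreated. The replicate block, a paired fit, gave 0 genes with a higher response (2 unadjusted) and 2 higher with LPS in KO over WT, beside 5 lower. Same-numbered arrays correlated positively in every pair only between the LPS-treated groups and between untreated KO and LPS-treated WT cells. In either case paired wells and array column cannot be told apart.

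Leaving out each array in turn gave 19 to 22 genes higher and 5 to 6 lower with LPS in KO cells, and 22 to 24 higher and 6 lower in WT cells. It gave 0 to 2 with a higher and 1 to 3 with a lower response. In KO over WT cells it gave 2 to 4 higher and 4 to 7 lower with LPS, and 1 to 3 higher and 1 to 4 lower untreated. The called values that turned round in the deposited value table were Ly96 with LPS in WT (-1.06), Unc93b1 with LPS in WT (-0.44, and -0.47 under quantile normalisation), Tlr13 with LPS in KO (0.45) and untreated KO over WT (-1.75), and Irak4 in the response (0.0103) and in LPS-treated KO over WT (0.13). With the mean of all probes, Nlrx1 with LPS was -0.26 in KO and -0.78 in WT cells, and Irak2 in LPS-treated KO over WT was -0.35. For the probe means the second probes show the difference, and elsewhere the cause was not tested. Marked spots were not set to missing in the deposited value table, and Tlr13 has such a spot on untreated KO replicate 3.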
